A study of Homo sapiens with 6 samples.

Results

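The genes described are those of the mitochondrial ribosomal proteins, taken as every row of the deposited gene table whose symbol is MRPL or MRPS followed by a number and, where present, a letter from A to C. The rule found 78 genes of the 16362 in the table, 49 with an MRPL symbol and 29 with an MRPS symbol. Mitochondria carry their own ribosome, which translates the few proteins encoded by mitochondrial DNA, all of them subunits of the respiratory chain and of ATP synthase. Its ribosomal RNAs come from the mitochondrial genome, while every one of its proteins is encoded in the nucleus, made in the cytosol and imported. Part of these proteins have a counterpart in the bacterial ribosome and the others were acquired by mitochondria. Symbols do not always follow the structure: MRPS30 and MRPS18A are proteins of the large subunit, and MRPS36 is now known as a subunit of the 2-oxoglutarate dehydrogenase complex. By structure the 78 genes thus comprised 51 genes of the large subunit, 26 of the small subunit and MRPS36. Of the 77 ribosomal members, 46 have a bacterial counterpart and 31 are specific to mitochondria.

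RNA was read as amplified cDNA on a nanopore sequencer from MDA-MB-231, an established human triple-negative breast cancer line. The 3 control libraries had no agent, and the 3 treated libraries came from cells kept with CTI-2 for 24 h. CTI-2 is a compound known here by its code name alone, with its dose and any vehicle in the controls not given in the sources used here. This comparison asks how transcript levels differ after CTI-2 in this single cell line.

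Library totals ranged from 2208261 to 3929532 counts, with 13908 to 14716 genes detected. All 78 members passed the low-count filter, and their counts in single libraries ranged from 12 to 3228. Whether libraries of a group are separate cultures is not stated, so that p-values measure the spread between these libraries, which may be technical. Mesenchymal genes were present in the controls (LGALS1 at 1106 CPM, CD44 at 145 CPM and SPARC at 187 CPM, where CPM is a count scaled to a library total of 1000000), although VIM and AXL were low at 18.7 and 3.34 CPM, while of the luminal genes CDH1 had no count in any control, KRT19 was at 3.65 CPM and EPCAM at 10 CPM. Of the controls, the second stood nearer to the treated libraries: along principal component 1 of all tested genes (43.4% of variance) the controls lay at -23.1, -8.16 and -23.1, and CTI-2 libraries 1 to 3 at 15.5, 13.7 and 25.1. For single members, and for the count of rises and median of all members, results below are therefore also given without that library or as a range over such fits. This is done where leaving it out changes a call or moves a value by over 1.5 times. Counts within classes of members, and values of genes outside the members, are given from all 6 libraries only. These may change without control 2.

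Transcripts of the mitochondrial ribosomal proteins were more often higher than lower after CTI-2. Of 78 members 16 rose (20.5%), where 3.39% of the 9848 tested genes did, and 1 fell, MRPS26, where 4.64% of tested genes did (edgeR's quasi-likelihood test, adjusted p under 0.05 over all tested genes). In all, 17 members passed, where 8.03% of tested genes did in either direction, and the other 61 did not. The rises were small, from 1.27-fold to 1.53-fold. The fold change was above 0 for 65 of the 78 members and for 4795 of the 9848 tested genes. The median log2 fold change was 0.22 over the members and -0.01 over all tested genes. At an unadjusted p under 0.05 there were 36 members and 2358 of all tested genes. In bulk RNA, a change in the number of cells that hold a transcript cannot be told apart from a change per cell.

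**Figure D1:**
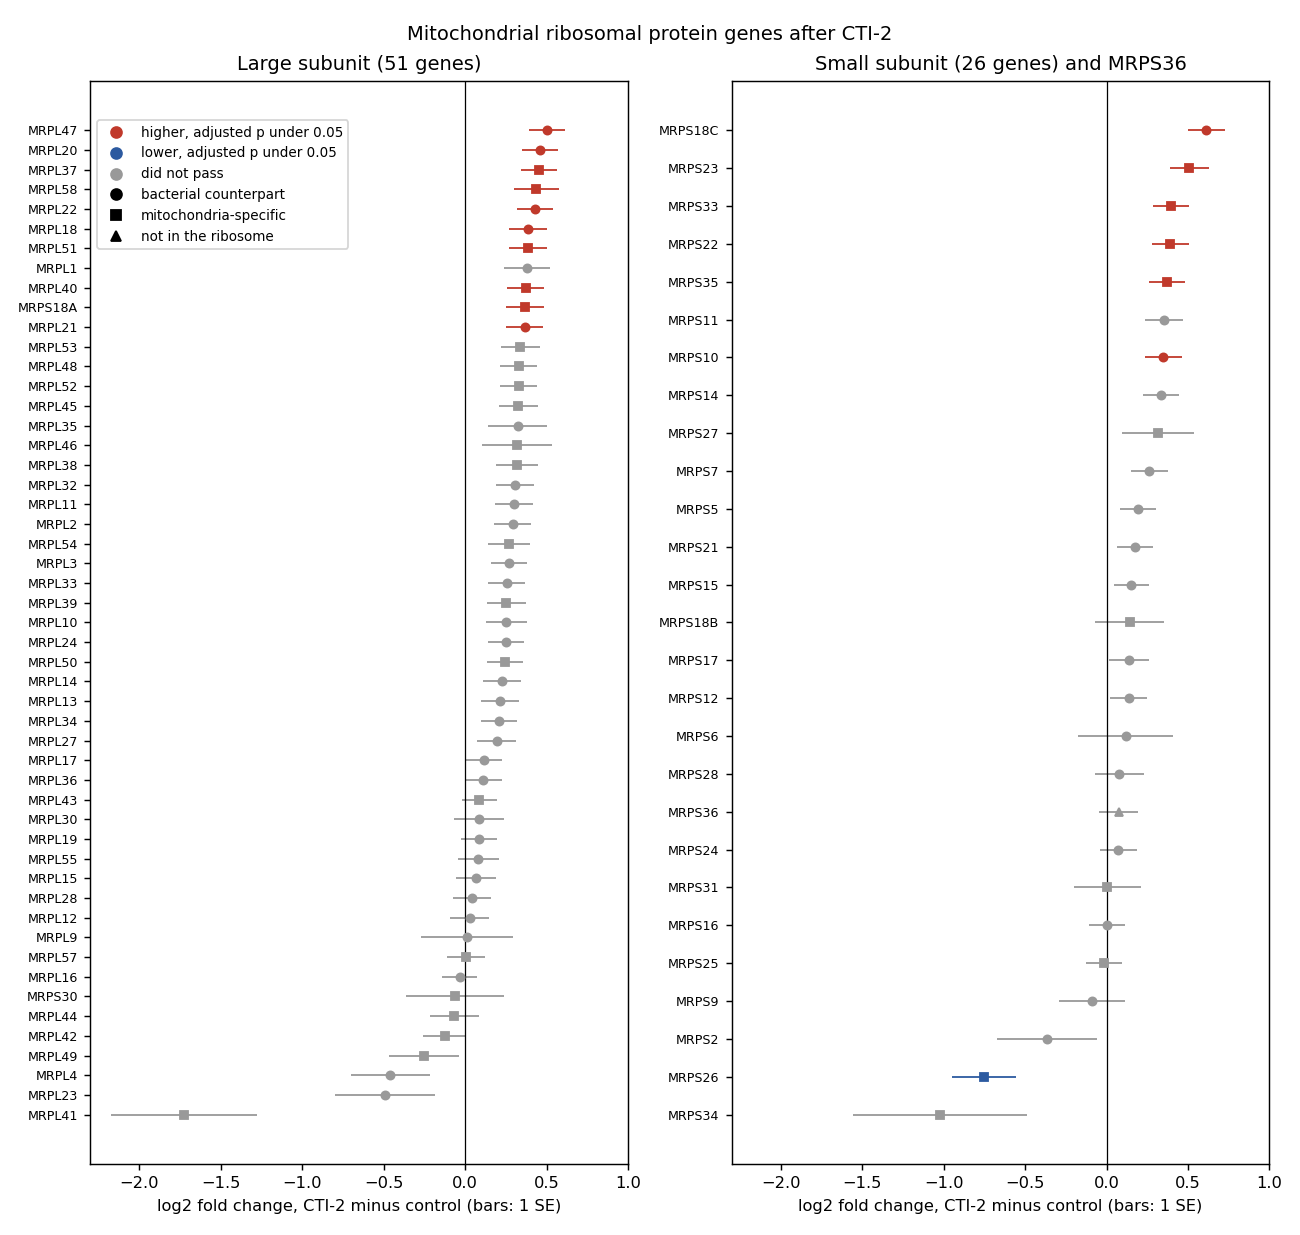
Log2 fold change (CTI-2 minus control, x axis) of each of the 78 members, with bars of 1 SE. Large-subunit genes are on the left and small-subunit genes with MRPS36 on the right, and red and blue points passed an adjusted p of 0.05. Most points lie just right of 0, and MRPL41, MRPS34 and MRPS26 lie far to the left.

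The members' summed level was higher in every treated library than in any control. Their share of counts was 1.18%, 1.23% and 1.08% for controls 1 to 3, and 1.31%, 1.32% and 1.32% for the treated libraries in the same order. The 95% exact binomial intervals reached at most 0.0151 percentage points to either side. They cover counting error within a library and not the spread between libraries. Amplified reads carry no molecular identifiers, so that the error in counting molecules may be larger. The CTI-2 libraries were alike and all lay above the controls, which were spread over a wider range. A typical member deviated from its own mean over the 6 libraries by -0.07, -0.0007 and -0.21 (log2 CPM, median) in the controls and by 0.08, 0.09 and 0.10 in the CTI-2 libraries. These values are scaled by library totals alone. With the TMM scaling between libraries that the test used, the medians were -0.13, 0.06 and -0.28 in the controls. They were 0.11, 0.11 and 0.12 in the CTI-2 libraries, so that control 2 lay nearer to these. Control 3 held the lowest control value for 55 members and control 2 the highest for 50. Neither pattern was counted over all tested genes. The groups did not overlap for 36 members with higher CPM after CTI-2, where 13.2% of tested genes had this pattern, and for 4 with lower CPM, where 15.6% of tested genes did. The pattern of higher CPM was more frequent among short and abundant transcripts. It held for 28.3% of tested genes under 1500 bases (48.1% of such members) and for 20.9% at 20 CPM or more (52.2% of such members).

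**Figure D2:**
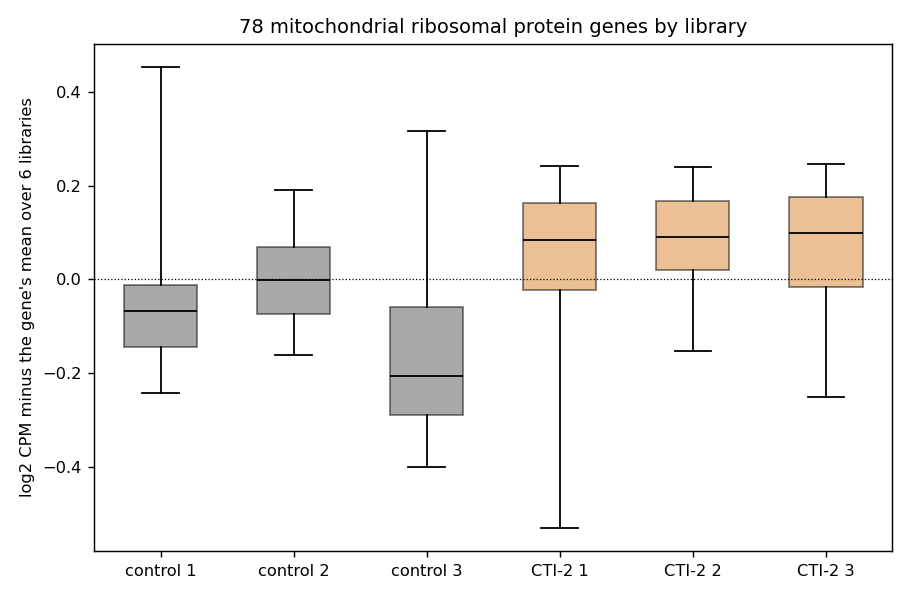
Log2 CPM of each member minus that member's mean over the 6 libraries (y axis), by library. Boxes give the median and quartiles and whiskers the 5th to 95th percentile over the 78 members. The median of control 2 lies at 0, between those of controls 1 and 3 and those of the CTI-2 libraries.

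The number of rises depended on which libraries were kept. Without control 2 there were 40 rises among members (9.57% of tested genes rose in that fit) and the members' median was 0.33. Without control 1 there were 3 (1.46% of tested genes), without CTI-2 library 3 also 3 (1.08%), without control 3 there were 5 (1.76%), without CTI-2 library 1 also 5 (1.62%), and without CTI-2 library 2 there were 6 (1.5%). In those 5 fits the members' median ranged from 0.14 (without control 3) to 0.22. MRPS18C and MRPL47 were higher at an adjusted p under 0.05 in all 6 fits that left out a library. For 42 of the 78 members all 3 CTI-2 libraries lay above control 2. How often this held over all tested genes was not counted.

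Among the genes of the large subunit 10 of 51 rose and 0 fell, with a median log2 fold change of 0.25. Those with a bacterial counterpart gave 5 rises among 30. MRPL47, the counterpart of bacterial protein uL29 near the exit of the nascent chain, had 232, 256 and 239 CPM in the controls and 348, 322 and 330 CPM in the treated libraries, each time in the order of libraries 1 to 3. Every CTI-2 library was above every control, and the mean went from 242 ± 12.5 to 333 ± 13.3 CPM (SD, n = 3 each), a log2 fold change of 0.50 (SE 0.11, adjusted p = 0.0034). MRPL20, a protein that binds ribosomal RNA and takes part in assembly of the large subunit in bacteria, had 324, 357 and 312 CPM in the controls and 419, 450 and 452 CPM in the treated libraries. It lies on chr1 from 1401908 to 1407313, minus strand (GRCh38, GENCODE 29), and rose by 0.46 on the log2 scale (SE 0.11, adjusted p = 0.0083). Without CTI-2 library 2, CTI-2 library 3 or control 1 its adjusted p was 0.0537, 0.0644 and 0.0579.

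MRPL22 (chr5, 154941070 to 154969411, plus strand), a protein that lines the exit tunnel, had 248, 261 and 220 CPM in the controls and 320, 310 and 322 CPM in the treated libraries (log2 fold change 0.43, SE 0.11, adjusted p = 0.0132). MRPL18, the counterpart of the bacterial protein that binds the small 5S ribosomal RNA, had 257, 244 and 200 CPM in the controls and 277, 303 and 310 CPM in the treated libraries (log2 fold change 0.39, SE 0.11, adjusted p = 0.0296). MRPL21 had 218, 251 and 213 CPM in the controls and 300, 280 and 274 CPM in the treated libraries (log2 fold change 0.37, SE 0.11, adjusted p = 0.0378). For all 3 genes the lowest CTI-2 library was above the highest control, by a margin that was small for MRPL18. MRPL22 passed in 2 of the 6 fits without a library (control 2 or CTI-2 library 2 left out), and MRPL18 and MRPL21 only without control 2.

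The proteins of the large subunit that mitochondria acquired gave 5 rises among 21, with a median log2 fold change of 0.32. MRPL37 had 183, 175 and 162 CPM in the controls and 216, 230 and 244 CPM in the treated libraries, a log2 fold change of 0.45 (SE 0.11, adjusted p = 0.0077). It kept its call in each fit without a library except that without CTI-2 library 3 (adjusted p = 0.0722). MRPL51 had the highest CPM per kilobase of transcript, at 1152 CPM per kb over all 6 libraries. It lies on chr12 from 6491886 to 6493841, minus strand, and had 542, 629 and 507 CPM in the controls and 737, 699 and 693 CPM in the treated libraries. Its mean went from 559 ± 62.7 to 710 ± 24.0 CPM (SD, n = 3 each; log2 fold change 0.39, SE 0.12, adjusted p = 0.0327), and control 2 was again the control nearest to the CTI-2 libraries.

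MRPL40, whose gene lies in the chromosome 22 region deleted in DiGeorge syndrome, had 129, 139 and 127 CPM in the controls and 172, 157 and 167 CPM in the treated libraries (log2 fold change 0.37, SE 0.11, adjusted p = 0.0316). MRPL58, also known as ICT1, is a peptidyl-tRNA hydrolase built into the large subunit. It was the least abundant of the members that rose, at 50.1, 51.2 and 41.3 CPM in the controls and 59.3, 68.8 and 60.2 CPM in the treated libraries (log2 fold change 0.44, SE 0.14, adjusted p = 0.0404). Both were higher in 3 of 3 CTI-2 libraries than in any control. The calls of MRPL51, MRPL40 and MRPL58 were lost when any library but control 2 was left out.

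Among small-subunit genes 6 of 26 rose and 1 fell, with a median log2 fold change of 0.15. Whether the subunits differ was not tested. MRPS23, a mitochondria-specific protein encoded on chr17 from 57834781 to 57850056 (minus strand), had 130, 161 and 131 CPM in the controls and 194, 188 and 205 CPM in the treated libraries. Its mean went from 141 ± 17.4 to 196 ± 8.45 CPM (SD, n = 3 each; log2 fold change 0.51, SE 0.12, adjusted p = 0.0054), and without control 1 the adjusted p was 0.0531. All CTI-2 libraries exceeded control 2, its highest control.

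MRPS22, a protein in which mutations cause severe mitochondrial disease, had 135, 151 and 129 CPM in the controls and 176, 179 and 175 CPM in the treated libraries (log2 fold change 0.39, SE 0.11, adjusted p = 0.0245). MRPS33 had 157, 153 and 143 CPM in the controls and 198, 182 and 199 CPM in the treated libraries (log2 fold change 0.40, SE 0.11, adjusted p = 0.0190). MRPS35 had 202, 225 and 203 CPM in the controls and 246, 255 and 290 CPM in the treated libraries (log2 fold change 0.37, SE 0.11, adjusted p = 0.0341). These are mitochondria-specific proteins, a class of the small subunit in which 4 of 10 genes rose and 1 fell. MRPS10, which has a bacterial counterpart in the head of the small subunit, had 118, 122 and 112 CPM in the controls and 150, 137 and 148 CPM in the treated libraries (log2 fold change 0.35, SE 0.11, adjusted p = 0.0455). The groups overlapped for none of the 4 genes. MRPS33 passed only without control 2 or CTI-2 library 2, and MRPS22, MRPS35 and MRPS10 only without control 2, among the fits without a library. Just past the threshold on the other side were MRPS11 and MRPS14, with adjusted p-values of 0.0528 and 0.0557, and without control 2 both passed (adjusted p = 0.0010 and 0.0048).

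Human cells hold 3 paralogs of the bacterial protein S18, which take different places in the mitochondrial ribosome. MRPS18C occupies the site of the bacterial protein, MRPS18B is another protein of the small subunit, and MRPS18A is part of the large subunit. MRPS18C had the largest rise of all 78 members: 125, 132 and 110 CPM in the controls and 188, 182 and 176 CPM in the treated libraries, with no overlap. Its mean went from 122 ± 11.5 to 182 ± 6.02 CPM (SD, n = 3 each), a 1.53-fold difference (log2 fold change 0.61, SE 0.11, adjusted p = 0.00067). MRPS18A rose less, from 98.6, 99.2 and 87.7 CPM to 126, 112 and 120 CPM (log2 fold change 0.37, SE 0.12, adjusted p = 0.0422), and its call was kept only without control 2 among the fits without a library. MRPS18B, the least abundant paralog, overlapped between groups at 12.7, 15.8 and 15.3 CPM in the controls and 18.4, 14.5 and 14 CPM in the treated libraries (log2 fold change 0.14, SE 0.21, adjusted p = 0.731), and without control 2 it was at 0.28 (adjusted p = 0.463). The differences among the paralogs' responses were not tested.

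**Figure D3:**
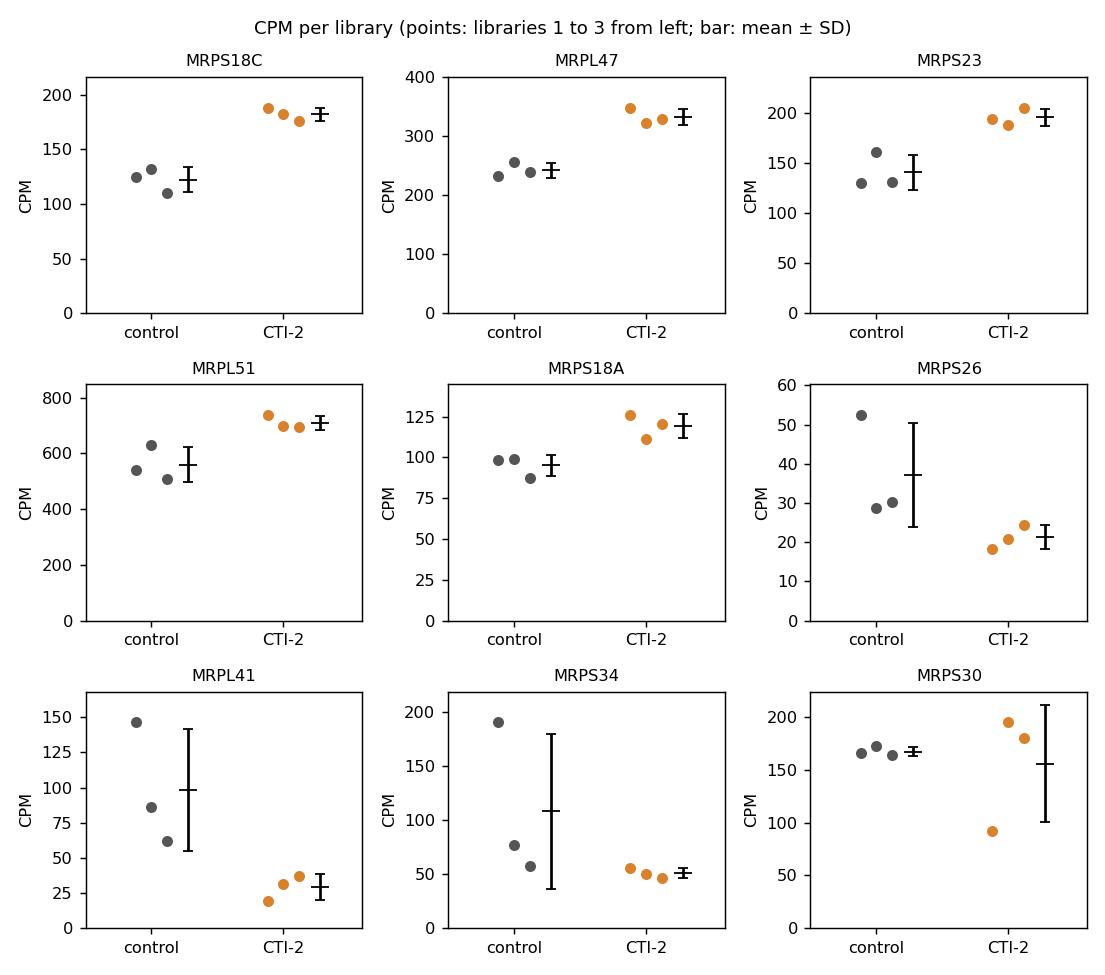
CPM per library (y axis, from 0) for 9 members, controls in grey and CTI-2 libraries in orange, with libraries 1 to 3 from left to right and the mean ± SD beside them. MRPS18C, MRPL47, MRPS23, MRPL51 and MRPS18A show separate groups with small spread, whereas the controls of MRPS26, MRPL41 and MRPS34 are spread widely with control 1 on top.

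The members at the low end had a different pattern across libraries. MRPS26, a mitochondria-specific protein of the small subunit (chr20, 3045945 to 3048254, plus strand), had 52.4, 28.8 and 30.2 CPM in the controls and 18.4, 20.9 and 24.5 CPM in the treated libraries. Its mean went from 37.1 ± 13.2 to 21.2 ± 3.05 CPM (SD, n = 3 each; log2 fold change -0.75, SE 0.20, adjusted p = 0.0170). Control 1 held the highest level, and without it the log2 fold change was -0.45 with an adjusted p of 0.189. Without CTI-2 library 1 the adjusted p was 0.0630, and DESeq2 gave 0.0609.

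MRPL41, a mitochondria-specific protein of the large subunit (chr9, 137551199 to 137552555, plus strand), had the most negative fold change of the members. It was at 146, 86.3 and 61.7 CPM in the controls and at 19.3, 31.0 and 37.1 CPM in the treated libraries, so that the groups did not overlap. The mean was 98.1 ± 43.6 CPM in the controls and 29.2 ± 9.04 CPM in the treated libraries (SD, n = 3 each; log2 fold change -1.73, SE 0.45), and with an adjusted p of 0.105 the difference did not pass. DESeq2 gave an adjusted p of 0.0093 and limma-voom 0.00041. Without control 1, its highest library, the log2 fold change was -1.36 with an adjusted p of 0.0032, and without control 3 the adjusted p was 0.0257.

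MRPS34, a protein that the small subunit needs for its stability (chr16, 1771890 to 1773155, minus strand), was at 190, 76.9 and 57.0 CPM in the controls and at 55.8, 49.9 and 46.6 CPM in the treated libraries. Control 1 was far above the other controls, while control 3 lay close to the first CTI-2 library. The log2 fold change was -1.02 (SE 0.53, adjusted p = 0.345), and without control 1 it was -0.39 (adjusted p = 0.167). The fourth member with lower CPM and no overlap was MRPL49, picked out here after its values were seen, at 15.4, 18.8 and 14 CPM in the controls and 13.3, 13.1 and 13.6 CPM in the treated libraries. Its log2 fold change was -0.26, and -0.04 without control 2. Also chosen after seeing its values, MRPS30 differed in a single library: it had 166, 172 and 164 CPM in the controls and 92.3, 195 and 180 CPM in the treated libraries (log2 fold change -0.07, SE 0.30, adjusted p = 0.930, and 0.01 without control 2).

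Besides a highest level in control 1, MRPL41, MRPS34 and MRPS26 shared a high content of G and C. The rule used neither trait of these genes. Their annotated transcripts hold 71.9%, 64.7% and 63.4% G and C, where the median over the 78 members is 50.3%. The coding starts below show this beside those of the members with the largest rises. Each line gives the first 90 coding bases of a GENCODE 29 transcript, with the start codon in capitals.
MRPL41: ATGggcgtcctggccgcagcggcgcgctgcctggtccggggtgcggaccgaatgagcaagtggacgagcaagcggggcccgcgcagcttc
MRPS34: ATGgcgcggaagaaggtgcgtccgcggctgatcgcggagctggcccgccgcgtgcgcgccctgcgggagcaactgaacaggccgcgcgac
MRPS26: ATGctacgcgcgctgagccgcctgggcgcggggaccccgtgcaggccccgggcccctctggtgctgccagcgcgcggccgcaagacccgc
MRPS18C: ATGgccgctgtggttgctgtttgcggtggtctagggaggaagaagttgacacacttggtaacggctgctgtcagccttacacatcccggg
MRPL47: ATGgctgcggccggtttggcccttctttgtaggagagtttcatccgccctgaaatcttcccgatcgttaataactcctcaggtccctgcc
MRPS23: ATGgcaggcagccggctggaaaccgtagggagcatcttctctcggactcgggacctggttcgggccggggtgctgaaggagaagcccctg

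In these stretches G and C make up 73.3%, 74.4% and 80.0% for MRPL41, MRPS34 and MRPS26, and 56.7%, 54.4% and 65.6% for MRPS18C, MRPL47 and MRPS23. The first 90 bases do not separate the members by direction: MRPL37 and MRPL58, which rose, hold 77.8% each there. Over the whole coding sequence MRPS26 (68.1%), MRPS34 (67.0%) and MRPL41 (65.7%) rank 1, 3 and 4 of the 78 members, while MRPS23 (51.1%), MRPS18C (42.7%) and MRPL47 (42.5%) rank 46, 69 and 71. Rank 2 is MRPL34 (68.1%), named for this rank after its values were seen. Its log2 fold change was 0.21 (adjusted p = 0.243), and its CPM was higher in every treated library than in any control. MRPL34 passed in 1 of the 6 fits that left out a library (adjusted p = 0.0209), and its log2 fold change was at most 0.32 over those fits. By transcript GC content, 7 of 20 members under 45% rose and 0 fell, with a median log2 fold change of 0.30. Between 45% and 60%, 9 of 45 rose and 0 fell (median 0.23), and at 60% or more 0 of 13 rose and 1 fell (median 0.03). Of those 13 members, 7 lay above 0 and 6 below. Besides MRPL41, MRPS34 and MRPS26, those below were MRPL23 (-0.49), MRPL4 (-0.46) and MRPS2 (-0.36), named after their values were seen. Their means in the controls were 11.8, 13.5 and 7.67 CPM. Over the fits that left out a library they ranged from -0.78 to -0.08, -0.65 to -0.32 and -0.62 to -0.16, and none passed. MRPL38 (0.32) and MRPL12 (0.03), named after their values were seen, both hold 64.6% G and C. Over the fits that left out a library MRPL38 ranged from 0.17 to 0.44 and MRPL12 from -0.04 to 0.16, and neither passed. Members at 60% or more thus had fold changes on both sides of 0, the most negative among them. The order of the 3 GC classes was the same over all tested genes with an annotated transcript: 143 rose and 93 fell of 3243 under 45%, 168 rose and 191 fell of 4629 between, and 16 rose and 123 fell of 1346 at 60% or more. Across genes, Spearman's rho of log2 fold change with GC content was -0.28 over the 78 members and -0.14 over 9218 tested genes, as a description, since genes measured in the same libraries are not independent. With each library's trend on GC content removed, 12 members rose (3.09% of tested genes rose in that fit) and MRPS26 fell (4.21% of tested genes fell; log2 fold change -0.60, adjusted p = 0.0469), and the value for MRPL41 was -1.42. The part of base composition in these differences was not tested further.

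**Figure D4:**
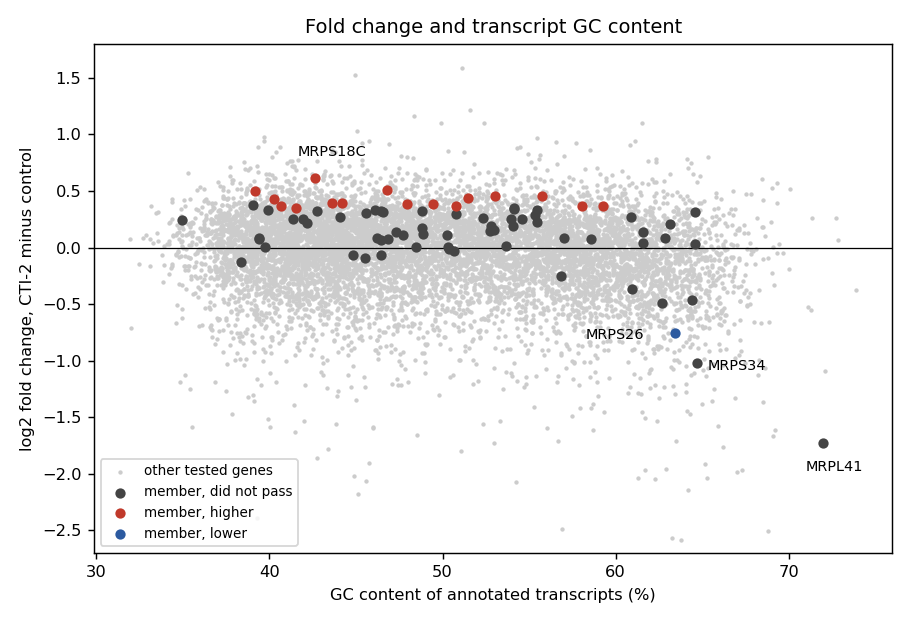
Log2 fold change (CTI-2 minus control, y axis) against the GC content of annotated transcripts (%, x axis) for tested genes, with members as large points. MRPS26, MRPS34 and MRPL41 lie at the lower right, at 63.4%, 64.7% and 71.9% GC, and no member at 60% or more is red.

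Transcripts of the members are short, with a median annotated length of 1137 bases (range 461 to 3332) against 2485 bases over all tested genes. Length also went with the fold change over all tested genes (Spearman's rho -0.21 over 9218 genes) but hardly within the members (-0.01 over 78). Of the members under 1500 bases 12 of 54 rose, or 22.2%, beside 153 of 1965 tested genes of that length, or 7.79%. Of those of 1500 bases or more 4 of 24 rose, beside 174 of 7253 tested genes. With each library's trend on transcript length removed, 11 members rose (3.68% of tested genes rose in that fit) and the members' median log2 fold change was 0.12. The fold change was then above 0 for 52 of the 78 members, instead of 65. MRPS18C, MRPL47, MRPS23, MRPL37 and MRPL20 still passed there, with adjusted p-values from 0.0032 to 0.0119.

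Levels per kilobase of transcript differed widely between members. Over all 6 libraries the highest were MRPL51 (1152 CPM per kb), MRPL33 (786), MRPS21 (642), MRPS24 (608) and MRPL20 (436), and the lowest was MRPS2 at 4.23 CPM per kb. The order depends on the division by length, which may not fit reads that span whole transcripts: by CPM alone MRPS21 was highest, at 863 CPM. MRPL33, a small protein with a bacterial counterpart, had 317, 370 and 321 CPM in the controls and 403, 410 and 355 CPM in the treated libraries (log2 fold change 0.26, SE 0.11, adjusted p = 0.160). Without control 2 it passed, at a log2 fold change of 0.39 (adjusted p = 0.0034). MRPS21 had the narrowest groups of these, at 843, 821 and 811 CPM in the controls and 915, 889 and 899 CPM in the treated libraries (log2 fold change 0.18, SE 0.11, adjusted p = 0.334), and it too passed without control 2 (0.23, adjusted p = 0.0273). MRPS24, the counterpart of bacterial S3, overlapped between groups at 403, 486 and 420 CPM in the controls and 431, 482 and 423 CPM in the treated libraries (log2 fold change 0.07, SE 0.12, adjusted p = 0.750), and did not pass without control 2 (0.22, adjusted p = 0.0678). Among the 11 members with a mean under 20 CPM 0 rose and 0 fell. Of tested genes of that level 0.344% rose and 4.24% fell, and of those at 20 CPM or more 6.12% rose and 5% fell.

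Counts of some members could include reads of other loci. The spans of 38 members overlap another counted gene, 7 of them among the 17 that passed, and of those 38 members 7 rose and 0 fell, beside 9 rises and 1 fall among the other 40. The 7 overlap 10 genes, all on the opposite strand, and of the 9 of these that were tested 0 passed. MRPS18C overlaps ABRAXAS1 (log2 fold change 0.29, adjusted p = 0.647), MRPL47 overlaps ACTL6A (0.20, adjusted p = 0.370) and MRPL51 overlaps NCAPD2 (-0.09, adjusted p = 0.760). The overlapping genes with a fold change near that of their member were SSBP3 (0.41, adjusted p = 0.150) at MRPL37 and RSPH9 (0.37, adjusted p = 0.376) at MRPS18A. The use of strand in counting was not given in the sources used here. GENCODE 29 also lists 75 pseudogenes named after 34 of the members, and 0 of them are among the counted genes. Whether reads of these loci were counted to the members was not tested.

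Promoters of nuclear genes for mitochondrial proteins are known for sites of NRF1, of ETS factors such as GABP, and of YY1. RefSeq promoters (GRCh38.p14, 250 bases before to 50 after the start) matched 69 of 78 members by symbol, and 3 motifs were searched on both strands, where matches of different motifs may overlap. The ETS motif CCGGAAG was in 29 of the 69 (42.0%) and in 10.7% of all 27305 promoters of the table. The YY1 motif AAGATGGC was in 20 of 69 (29%) and in 3.03% of all promoters. The NRF1 motif, GCGCA and GCGC with any base between them, was in 8 of 69 (11.6%) and in 6.28% of all. The 27305 promoters include those of genes not tested here, and were not matched to the members in base content or expression. Whether other expressed genes hold these motifs as often was not counted. Of 15 members that rose and had a promoter in the table, 11 held the ETS motif, 6 the YY1 motif and 1 the NRF1 motif. The promoter of MRPS26, which fell, held the ETS motif too. These are matches of letters and not measured sites. The start is that of RefSeq and can differ from that of GENCODE 29. Bases after it were found in the GENCODE 29 transcript for 59 of the 69 members. For MRPL51 the 150 bases before the RefSeq start lie wholly within the gene's GENCODE 29 span, and for MRPS18C most of them do. For these genes the bases may thus be transcribed. The 150 bases before the start are shown for 5 members that rose and for MRPS34, which had a negative fold change, with matches to a motif on either strand in capitals, at chr3:179604639-179604788 (MRPL47), chr1:1407294-1407443 (MRPL20), chr17:57850045-57850194 (MRPS23), chr12:6493263-6493412 (MRPL51) and chr16:1773135-1773284 (MRPS34), all minus strand, and at chr4:83455908-83456057 (MRPS18C), plus strand, each written in the direction of the gene.
MRPL47: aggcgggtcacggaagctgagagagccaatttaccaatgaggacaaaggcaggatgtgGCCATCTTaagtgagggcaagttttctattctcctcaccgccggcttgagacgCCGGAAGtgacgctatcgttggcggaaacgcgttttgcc
MRPL20: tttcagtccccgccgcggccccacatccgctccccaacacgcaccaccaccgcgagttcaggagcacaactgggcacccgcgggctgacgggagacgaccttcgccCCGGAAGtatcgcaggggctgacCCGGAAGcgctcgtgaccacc
MRPS23: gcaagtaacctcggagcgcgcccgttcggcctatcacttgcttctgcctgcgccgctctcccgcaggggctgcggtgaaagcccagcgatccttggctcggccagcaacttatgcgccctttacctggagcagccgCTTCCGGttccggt
MRPL51: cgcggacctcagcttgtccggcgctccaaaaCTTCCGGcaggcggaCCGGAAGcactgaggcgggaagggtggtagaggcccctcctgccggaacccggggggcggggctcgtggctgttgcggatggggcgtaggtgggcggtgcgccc
MRPS18C: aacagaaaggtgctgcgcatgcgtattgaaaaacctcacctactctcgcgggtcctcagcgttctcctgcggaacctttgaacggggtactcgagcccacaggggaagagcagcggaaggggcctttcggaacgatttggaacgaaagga
MRPS34: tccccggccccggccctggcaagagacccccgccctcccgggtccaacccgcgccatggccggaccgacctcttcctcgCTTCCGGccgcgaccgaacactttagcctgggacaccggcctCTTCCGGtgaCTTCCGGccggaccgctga

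MRPL47 shows a YY1 match on the reverse strand and an ETS match, MRPL20 has 2 ETS matches, MRPS23 has 1 and MRPL51 has 2. MRPL20 and MRPL51 each also hold 1 YY1 match in the searched promoter, outside the 150 bases shown. MRPS18C, with the largest rise, has none in these 150 bases and 1 ETS match in the bases after the start, and MRPS34 has 3 ETS matches. Of 8 genes listed as regulators of such promoters (among them NRF1, GABPA, GABPB1, YY1 and MYC), 0 passed the test with edgeR, and 1 had an unadjusted p under 0.05. The log2 fold change was above 0 for 7 of the 8 (median 0.19), and ran from -0.32 for YY1 to 0.46 for PPRC1, both named after their values were seen. Those of highest CPM were MYC and GABPB1: MYC was at 385 CPM in the controls and 399 CPM with treatment, and GABPB1 at 40.8 and 41.6 CPM.

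Other parts of the mitochondrial gene expression system were set beside the members from lists of their known genes. The 5 mitoribosome proteins with other symbols had 0 rises and 0 falls at a median log2 fold change of 0.12. DAP3, a GTP-binding protein of the small subunit, was at 239 CPM in the controls and 256 CPM with treatment, and CHCHD1 at 243 and 257 CPM. Of 27 assembly factors 3 rose and 2 fell (median 0.01). Those that rose were ERAL1, a chaperone of the small subunit's ribosomal RNA (105 CPM in controls, 139 CPM when treated, log2 fold change 0.44, adjusted p = 0.0097), and the methyltransferases of the large subunit's ribosomal RNA MRM3 (58.4 to 78 CPM, 0.45, adjusted p = 0.0241) and MRM2 (0.43, adjusted p = 0.0256), the last named after its values were seen. Those that fell were MTG1, a GTPase of large-subunit assembly (68.8 CPM in controls, 43.7 CPM when treated, log2 fold change -0.61, adjusted p = 0.0032), and RBFA, which acts in maturation of the small subunit (22.8 to 11.5 CPM, -0.90, adjusted p = 0.0089).

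Of 13 mitochondrial translation factors 2 rose and 0 fell (median 0.12): GFM1, an elongation factor, at 102 CPM in controls and 130 CPM when treated (0.41, adjusted p = 0.0201), and MTIF3, an initiation factor, from 46.6 to 60 CPM (0.42, adjusted p = 0.0398). Of 11 genes of mitochondrial transcription and RNA handling 2 rose and 0 fell (median 0.08). They were MTPAP, the mitochondrial poly(A) polymerase, from 22.4 to 35.7 CPM (0.72, adjusted p = 0.0050), and SLIRP, a partner of LRPPRC in keeping mitochondrial mRNA stable, from 455 to 603 CPM (0.45, adjusted p = 0.0117). Of the 13 proteins encoded by mitochondrial DNA 0 rose and 9 fell, with a median log2 fold change of -0.59. For the cytosolic ribosome, of 77 protein genes 0 rose and 3 fell, with a median of 0.10, and RPL3 fell from 2999 to 1522 CPM (-0.93, adjusted p = 3.5e-06). The fold change was above 0 for 65 of these 77 genes, a share like that of the 78 members (65). Differences between these lists and the members were not tested.

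**Figure D5:**
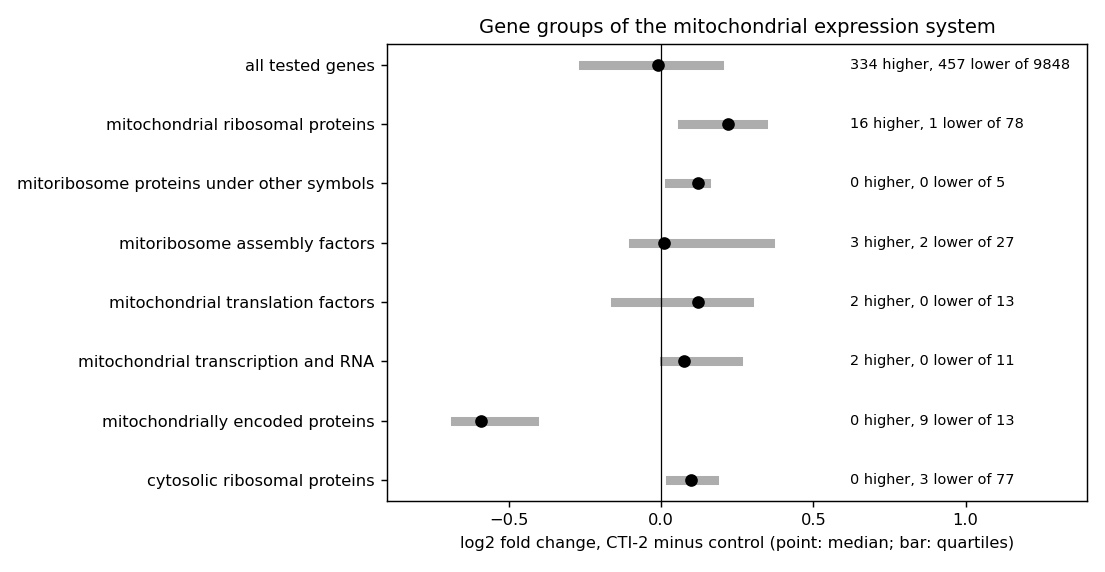
Median (point) and quartiles (bar) of the log2 fold change, CTI-2 minus control (x axis), for all tested genes, the members and the lists set beside them, with the number of genes that passed in each direction. The members' median lies at 0.22 and that of the mitochondrially encoded proteins at -0.59.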

How the data were processed

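The deposited files hold whole-number counts of reads for each gene and a table of CPM made by the authors, which equals each count divided by its library total and multiplied by 1000000 (to within 1e-09). Libraries were made with a nanopore cDNA-PCR kit, per the labels' protocols, and the submitters' processing notes name minimap2. Version, build, counter and use of strand were not given in the sources used here. Each library's group is its labelled agent, 3 per group. Genes were filtered with filterByExpr (9848 kept), TMM-scaled and put through the quasi-likelihood test of edgeR 4.0.16 in R 4.3.3, CTI-2 minus control, with Benjamini-Hochberg adjustment over all tested genes and a threshold of 0.05. The SE is the log2 fold change over the root of its F statistic, and the common biological coefficient of variation was 0.100. In all libraries, 3 counts equal 0.763 to 1.36 CPM. On simulated data the fit recovered 38.8% of the genes changed 1.5-fold, 92.5% of those changed 2-fold and 100% of those changed 4-fold. Of 164 calls there, 10 were false. These rates belong to the simulated data, and whether they hold for the deposited libraries was not tested. A member that did not pass may still differ by as much as the rises reported here.

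Coordinates, transcript lengths and GC content (median over a gene's basic protein-coding transcripts, for 93.6% of tested genes) come from GENCODE 29 on GRCh38. Gene coordinates are printed only where the deposited length equals the GENCODE 29 span (58 of 78 members). The members and lists were chosen with earlier results of these data known. The text names every member that passed, the 5 of highest CPM per kb, the 3 largest rises and falls, the MRPS18 paralogs and, by adjusted p, up to 4 genes of each list that passed, or otherwise the 2 of highest CPM. Those just outside the threshold, and others so marked, were added. Alternatives were DESeq2's size factors, library totals, other low-count filters, DESeq2 1.42.0, limma 3.58.1 voom, the replicate number as a block, removal of each library's trend (lowess span 0.3) on transcript length or GC content, an adjusted p of 0.01 and leaving out each library.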

Additional observations from a re-analysis of the deposited data

How the results depend on the processing

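Over the 15 alternatives tried on single genes, MRPS18C and MRPL47 kept their direction and stayed under an adjusted p of 0.05. Of 345 values for 23 named members, 249 kept direction and side of the threshold, 87 lost the call, 7 gained it and 2 changed sign: MRPS18B, not called, ranged from -0.00043 (without CTI-2 replicate 1) to 0.28 (without control replicate 2), and MRPS24, not called, was at -0.073 with the length trend removed. DESeq2 called 498 of all genes (47.0% of them lower, against 57.8% of 791) and 14 members. At an adjusted p of 0.01 there were 306 calls among all genes and 5 among the members, 5 higher and 0 lower. Leaving out each library gave 400 to 1610 calls among all genes and 4 to 41 among members, 3 to 40 of them higher and 0 to 2 lower, lowest without CTI-2 replicate 3 and highest without control replicate 2 for all genes. The members' median stayed between 0.12 and 0.33. The cause of these differences was not tested. With limma-voom 2 members were lower, MRPS26 and MRPL41.

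Replicate numbers did not pair the libraries (correlations of same-numbered libraries' deviations -0.05, 0.007 and -0.12). With the replicate block there were 942 calls among all genes, 18 among members, 16 of them higher and 2 lower (MRPS26 and MRPS34, the latter at an adjusted p of 0.0016), and the members' median was 0.23. Members under 20 CPM had no call, and the part of depth in this was not tested.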
